A study of Homo sapiens with 24 samples.

Results

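The matrix proteases and their inhibitors described here were the protein-coding genes of GENCODE release 44 with a symbol made of MMP, ADAMTS, ADAMTSL or TIMP and a number. The rule took 50 of the 60279 genes in the count tables: 22 MMP genes, 19 ADAMTS genes, 5 ADAMTSL genes and 4 TIMP genes. A mean of at least 5 counts per library was reached by 35 of the 50, namely 12 MMP, 15 ADAMTS, 5 ADAMTSL and 3 TIMP genes. RNA was sequenced from SW872, a human liposarcoma cell line, after stable retroviral transduction and drug selection, with 8 groups of 3 libraries. EV carried the empty vector and was collected 48 hours after confluence, as were TFE3 (full-length TFE3), YAP5SA and TAZ4SA (YAP and TAZ with serines changed to alanine, so that the Hippo kinases no longer restrain them), TAZ-CAMTA1 and YAP-TFE3 (the fusion proteins of epithelioid hemangioendothelioma). CAMTA1 (full-length CAMTA1) and a second empty-vector group, EVsub, were collected below confluence, so CAMTA1 was compared with EVsub. All groups shared the parent line and the vector backbone, each line was a pool of selected cells and not a clone, and the cells kept their own YAP and TAZ beside the constructs.

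Matrix metalloproteinases (MMPs) are zinc endopeptidases, secreted or anchored in the membrane, that cleave collagens, gelatin, laminins and cell-surface proteins. ADAMTS proteases are secreted relatives with thrombospondin repeats that trim procollagens, proteoglycans and von Willebrand factor, and the ADAMTS-like (ADAMTSL) proteins keep the repeats but lack the protease domain and sit on fibrillin fibres. TIMPs are the tissue inhibitors that block the active site of MMPs and, for TIMP3, of several ADAMTS proteases. Both protease families are made as inactive proenzymes, so an RNA level is not an activity. In mesenchymal cells the best-known circuit joins MMP14, TIMP2 and MMP2: MMP14 at the cell surface binds TIMP2, and the pair captures and activates MMP2.

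The libraries held 19700277 to 35287476 counts on genes, of which the 50 members took 0.147 to 0.227%. The constructs were read first. CAMTA1 stood at 139, 141 and 152 counts per 1000000 counts (CPM) in TAZ-CAMTA1 and at 128, 128 and 114 in CAMTA1, against 21.4, 23.4 and 19.3 in EV. TFE3 stood at 358, 326 and 324 CPM in TFE3 and at 296, 325 and 228 in YAP-TFE3, against 109, 120 and 129 in EV, and YAP1 at 249.5, 251 and 259 CPM in YAP5SA against 141, 127 and 116. TFE3 also rose against EV in groups without a TFE3 construct. Its log2 difference was 0.54 in the libraries labelled TAZ4SA (edgeR adjusted p = 0.000129) and 0.64 in YAP5SA (edgeR adjusted p = 2.16e-05). YAP1 in YAP-TFE3 rose by a log2 difference of 0.26 (edgeR adjusted p = 0.0341), and the groups overlapped. YAP1 rose without a YAP construct in TAZ-CAMTA1 (log2 difference 0.40, edgeR adjusted p = 0.0175) and in EVsub. TFE3 fell in EVsub and YAP1 in the libraries labelled TAZ4SA. WWTR1, which encodes TAZ, went against its label: it stood at 135, 134 and 134 CPM in the libraries labelled TAZ4SA and at 225, 203 and 184 in EV, a log2 difference of -0.60 (edgeR adjusted p = 9.77e-07), so these 3 are called by their label and every direction drawn from them rests on it. In TAZ-CAMTA1 WWTR1 did not rise either, at 180, 183 and 179 CPM, and did not pass against EV. WWTR1 also fell against EV in YAP-TFE3 (log2 difference -0.70 ± 0.08 SE, edgeR adjusted p = 9.98e-08) and in YAP5SA (log2 difference -1.57 ± 0.08 SE, edgeR adjusted p = 1.7e-13). Mesenchymal markers (VIM, COL1A1, COL1A2, COL3A1, FN1, THY1 and PDGFRB; 7 of 7 tested) summed to 4829 to 5726 CPM in EV, and the immune markers PTPRC, CD68 and ITGAM lay under 1 CPM in every group mean. ITGAM came close to that limit in YAP-TFE3, with a mean of 0.999 CPM against 0.144 in EV. Of the 5 adipocyte markers ADIPOQ, FABP4 and PLIN1 also lay under 1 CPM in every group mean, while PPARG averaged 46.8 and LPL 139.6 CPM in EV. FABP4 averaged 0.633 CPM in YAP-TFE3 and 0 in EV. The 5 summed to 148.3 to 222.3 CPM in EV, 302.5 to 368.6 in YAP-TFE3, 62.4 to 72.6 in the libraries labelled TAZ4SA and 114 to 128 in YAP5SA, and to 107 to 113 in CAMTA1 beside 204 to 236 in EVsub, and their part in the results was not tested. The 3 endothelial markers summed to 39.9 to 64.2 CPM in EV and to 9.96 to 15.7 CPM in YAP5SA, mostly through CDH5, which averaged 42.9 and 5.67 CPM, while VWF averaged 1.71 and 5.60 CPM. Of the 3 epithelial markers, CDH1 averaged 0.0242 CPM in EV and 1.53 in YAP5SA, EPCAM 1.20 and 0.598, and KRT19 0.0369 and 0.0316. Replicate 3 of YAP-TFE3 stood apart from its group: the chi-square per degree of freedom over genes was 72.4 and 57 against replicates 1 and 2, which differed from each other by 11.3, and reached at most 26 between replicates of other groups. Mitochondrial genes took 5.12% of its counts and 3.63 and 3.79% in the other 2.

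Per kilobase of exon, 5 genes made up most of the family RNA. In EV, TIMP1 led at 165 CPM per kb, followed by MMP14 at 91.96, MMP2 at 83.8, TIMP2 at 57.7 and ADAMTS12 at 24.6. MMP15 came next at 11.4 CPM per kb. Several secreted MMPs, MMP7, MMP8, MMP10, MMP12 and MMP13, were among the 15 members below the count minimum, with MMP16, MMP20, MMP21, MMP26, MMP27, ADAMTS5, ADAMTS8, ADAMTS19, ADAMTS20 and TIMP4. Their means ran from 0 to 4.042 counts, no library held more than 10 counts of any of them, and 7 of the 15 never passed 3 counts. Around the minimum, MMP3 (7.542 counts) and ADAMTSL3 (7.625) were just inside, while ADAMTS20 (4.042) and TIMP4 (3.208) were just outside. Differences between groups are log2 fold changes with their standard error (SE) from edgeR's quasi-likelihood test, with p adjusted over all 19997 genes tested, and a gene is called at an adjusted p under 0.05.

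The gelatinases MMP2 and MMP9 cleave denatured collagen and basement membrane collagen. MMP2 (chr16:55389700-55506691 in hg38) stood at 343, 365 and 474 CPM in EV, 183, 188 and 174 in EVsub, 204, 246 and 299 in CAMTA1 and 414, 359 and 437 in TFE3. TAZ-CAMTA1 held 399, 332 and 426, YAP-TFE3 219, 247 and 265, the libraries labelled TAZ4SA 239, 222 and 192 and YAP5SA 206, 212 and 175. The confluent empty vector, TFE3 and TAZ-CAMTA1 libraries formed the high set, and all libraries of the other 5 groups lay below the lowest of these. MMP2 fell against EV in EVsub (log2 difference -1.12 ± 0.14 SE, edgeR adjusted p = 3.59e-06), in YAP5SA (log2 difference -0.995 ± 0.14 SE, edgeR adjusted p = 1.83e-06), in the libraries labelled TAZ4SA (log2 difference -0.86 ± 0.13 SE, edgeR adjusted p = 1.29e-05) and in YAP-TFE3 (log2 difference -0.69 ± 0.13 SE, edgeR adjusted p = 0.000145). Neither TAZ-CAMTA1 nor TFE3 passed the test for MMP2. TAZ-CAMTA1 was instead above both the libraries labelled TAZ4SA (log2 difference 0.82 ± 0.13 SE, edgeR adjusted p = 1.72e-05) and YAP-TFE3 (log2 difference 0.66 ± 0.13 SE, edgeR adjusted p = 0.000296). MMP9 was scarce and uneven, at 5.28, 7.997 and 4.07 CPM in EV, 2.97, 2.43 and 4.002 in EVsub, 3.40, 2.61 and 3.04 in CAMTA1 and 9.82, 5.42 and 4.23 in TFE3. TAZ-CAMTA1 held 2.58, 2.43 and 1.38, YAP-TFE3 2.83, 3.48 and 1.85, the libraries labelled TAZ4SA 3.94, 3.65 and 2.35 and YAP5SA 0.614, 1.09 and 0.924. YAP5SA held the lowest values, apart from every other group, and fell against EV (log2 difference -2.72 ± 0.37 SE, edgeR adjusted p = 1.95e-06). MMP9 was also called lower in TAZ-CAMTA1 (log2 difference -1.46 ± 0.32 SE, edgeR adjusted p = 0.00598), in the libraries labelled TAZ4SA (log2 difference -0.81 ± 0.31 SE, edgeR adjusted p = 0.0318), in YAP-TFE3 (log2 difference -1.10 ± 0.31 SE, edgeR adjusted p = 0.00469) and in EVsub (log2 difference -0.87 ± 0.31 SE, edgeR adjusted p = 0.0283). Each of these 4 calls was lost without at least 1 library. The TAZ-CAMTA1 call was lost in edgeR without replicate 2 of EV (log2 fold change -1.15, adjusted p = 0.0716) or without replicate 3 of TAZ-CAMTA1 (log2 fold change -1.22, adjusted p = 0.0606). The call in the libraries labelled TAZ4SA was lost in edgeR without replicate 2 of EV (log2 fold change -0.51, adjusted p = 0.22) or without replicate 3 of the libraries labelled TAZ4SA (log2 fold change -0.61, adjusted p = 0.14), the YAP-TFE3 call was lost in edgeR without replicate 2 of EV (log2 fold change -0.79, adjusted p = 0.0555), and the EVsub call was lost in edgeR without any 1 of replicate 2 of EV and replicates 1 and 2 of EVsub (log2 fold change -0.83 to -0.57, adjusted p 0.0854 to 0.203). MMP9 exons overlap SLC12A5-AS1 on the opposite strand.

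MMP14 and MMP15 are membrane-type MMPs with a transmembrane anchor. Per length, MMP14 was the first protease RNA or level with MMP2 in every group. It stood at 370, 425 and 480.3 CPM in EV, 298, 290.4 and 308 in EVsub, 232, 230.5 and 267 in CAMTA1 and 532, 385 and 511 in TFE3. TAZ-CAMTA1 held 390, 367 and 379, YAP-TFE3 487, 562 and 597, the libraries labelled TAZ4SA 424, 415 and 345 and YAP5SA 280.2, 292 and 246. YAP-TFE3 held the highest group mean, 549 ± 56.3 CPM (SD, n = 3), and YAP5SA, EVsub and CAMTA1 lay wholly below EV. MMP14 fell in YAP5SA (log2 difference -0.64 ± 0.12 SE, edgeR adjusted p = 8.18e-05) and in EVsub (log2 difference -0.51 ± 0.12 SE, edgeR adjusted p = 0.00145). It rose in YAP-TFE3 (log2 difference 0.37 ± 0.12 SE, edgeR adjusted p = 0.0104), and that call was lost in edgeR without replicate 1 of EV (log2 fold change 0.28, adjusted p = 0.0754). YAP-TFE3 lay above YAP5SA with no overlap (log2 difference 1.01 ± 0.12 SE, edgeR adjusted p = 1.09e-07), and TAZ-CAMTA1 lay below YAP-TFE3 (log2 difference -0.54 ± 0.12 SE, edgeR adjusted p = 0.000568). MMP15 stood at 38.5, 47.5 and 58.2 CPM in EV, 29.01, 26.6 and 33.7 in EVsub, 20.4, 24.8 and 27.4 in CAMTA1 and 55.95, 39.4 and 60.3 in TFE3. TAZ-CAMTA1 held 56.4, 57.1 and 76.4, YAP-TFE3 37.2, 43 and 51.1, the libraries labelled TAZ4SA 53.2, 54.3 and 51.9 and YAP5SA 71.1, 72.04 and 66.2. Every EVsub library lay below every EV library, and every YAP5SA library above. MMP15 fell in EVsub (log2 difference -0.69 ± 0.16 SE, edgeR adjusted p = 0.00195) and was lower in YAP-TFE3 than in YAP5SA (log2 difference -0.67 ± 0.16 SE, edgeR adjusted p = 0.00102). Its rise in YAP5SA (log2 difference 0.54 ± 0.16 SE, edgeR adjusted p = 0.00796) was lost in edgeR without replicate 1 of EV (log2 fold change 0.40, adjusted p = 0.0669), and under scaling by total counts (adjusted p = 0.073). TAZ-CAMTA1 exceeded YAP-TFE3 (log2 difference 0.53 ± 0.16 SE, edgeR adjusted p = 0.00869), which was lost in edgeR without replicate 3 of TAZ-CAMTA1 (log2 fold change 0.37, adjusted p = 0.0813) or without replicate 1 of YAP-TFE3 (log2 fold change 0.43, adjusted p = 0.0532).

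**Figure D1:**
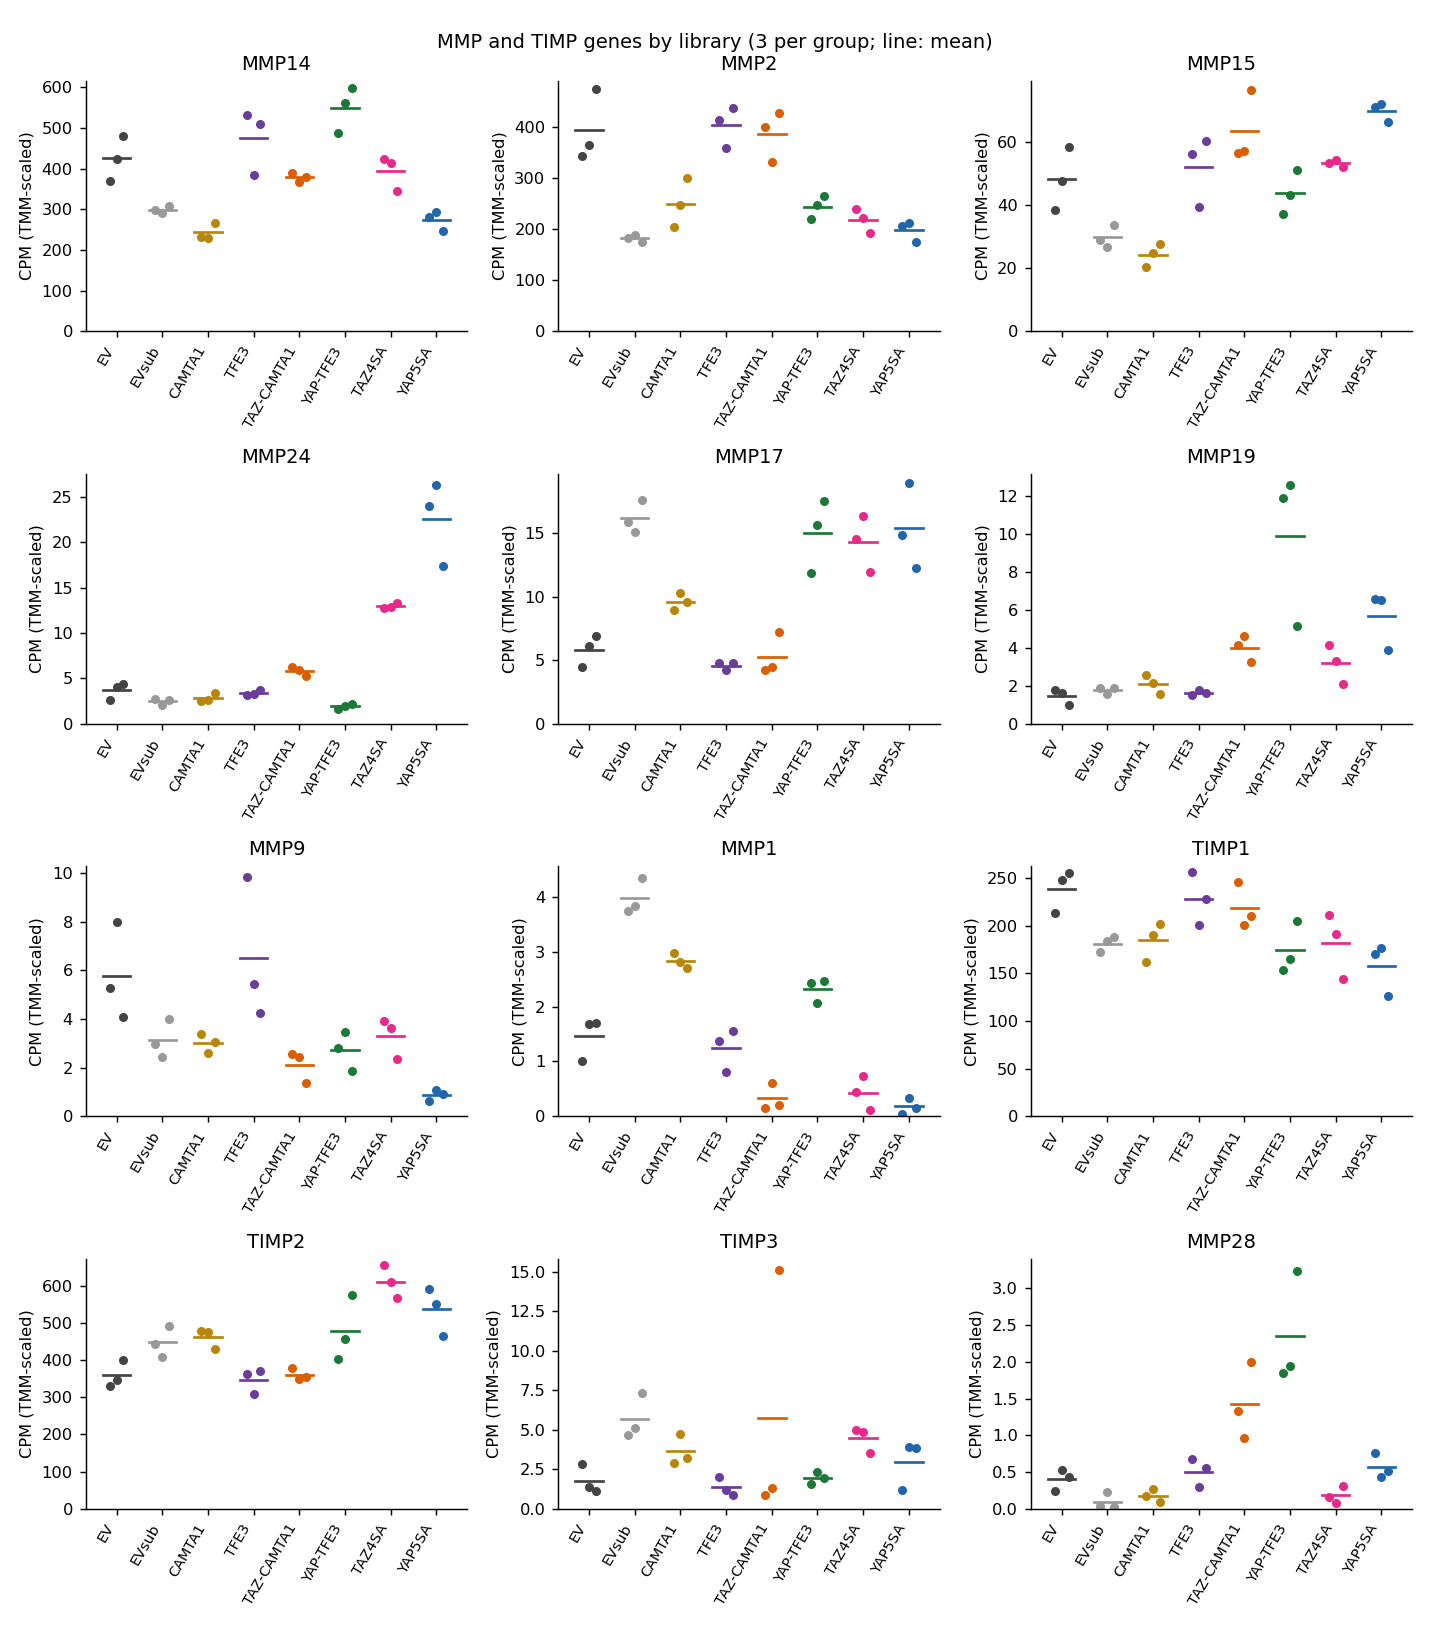
MMP and TIMP genes by library. Each panel plots 1 gene, the vertical axis is TMM-scaled CPM, points are single libraries (3 per group) and lines are group means. MMP2 was high in EV, TFE3 and TAZ-CAMTA1 and lower in the other 5 groups, while MMP24 reached 22.6 ± 4.64 CPM (SD, n = 3) in YAP5SA against 3.69 ± 0.943 in EV.

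MMP24 is a membrane-type MMP best known from the nervous system. Its libraries held 2.62, 4.04 and 4.41 CPM in EV, 2.71, 2.12 and 2.67 in EVsub, 2.50, 2.65 and 3.34 in CAMTA1 and 3.13, 3.31 and 3.67 in TFE3. TAZ-CAMTA1 held 6.25, 5.96 and 5.29, YAP-TFE3 1.59, 2.01 and 2.20, the libraries labelled TAZ4SA 12.8, 12.9 and 13.3 and YAP5SA 23.98, 26.3 and 17.4. YAP5SA and the libraries labelled TAZ4SA stood clear of all others, and YAP-TFE3 held lower values than every library of EV. MMP24 rose in YAP5SA (log2 difference 2.62 ± 0.17 SE, edgeR adjusted p = 1.37e-11) and in the libraries labelled TAZ4SA (log2 difference 1.83 ± 0.17 SE, edgeR adjusted p = 7e-09), and fell in YAP-TFE3 (log2 difference -0.91 ± 0.19 SE, edgeR adjusted p = 0.000413). YAP-TFE3 lay below YAP5SA (log2 difference -3.54 ± 0.18 SE, edgeR adjusted p = 1.42e-13). TAZ-CAMTA1 lay between EV and the libraries labelled TAZ4SA, below the latter (log2 difference -1.16 ± 0.17 SE, edgeR adjusted p = 3.07e-06) and above YAP-TFE3 (log2 difference 1.58 ± 0.19 SE, edgeR adjusted p = 2.36e-07). Its rise over EV (log2 difference 0.67 ± 0.18 SE, edgeR adjusted p = 0.0272) was lost in edgeR without any 1 of replicates 1 and 2 of EV and replicates 1 and 2 of TAZ-CAMTA1 (log2 fold change 0.47 to 0.75, adjusted p 0.0517 to 0.164). The fall in EVsub (log2 difference -0.54 ± 0.19 SE, edgeR adjusted p = 0.0307) was lost in edgeR without any 1 of replicates 2 and 3 of EV and replicates 2 and 3 of EVsub (log2 fold change -0.59 to -0.40, adjusted p 0.0505 to 0.16), and under a filter of 1 count (adjusted p = 0.0507). Exons of MMP24 overlap the opposite-strand gene MMP24OS, and whether the counting used strand is not given in the sources used here.

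MMP17 and MMP25 are the membrane-type MMPs held by a lipid anchor. MMP17 stood at 4.49, 6.13 and 6.93 CPM in EV, 15.9, 15.1 and 17.6 in EVsub, 8.96, 10.3 and 9.57 in CAMTA1 and 4.76, 4.21 and 4.78 in TFE3. TAZ-CAMTA1 held 4.24, 4.45 and 7.19, YAP-TFE3 11.9, 15.7 and 17.6, the libraries labelled TAZ4SA 14.6, 16.4 and 11.9 and YAP5SA 14.9, 18.97 and 12.3. All libraries of EVsub, YAP-TFE3, YAP5SA and those labelled TAZ4SA exceeded every library of EV, TFE3 and TAZ-CAMTA1. The log2 rise over EV was 1.48 ± 0.20 (SE; edgeR adjusted p = 8.16e-06) in EVsub, 1.37 ± 0.20 (SE; edgeR adjusted p = 2.96e-06) in YAP-TFE3, 1.40 ± 0.20 (SE; edgeR adjusted p = 3.14e-06) in YAP5SA and 1.30 ± 0.20 (SE; edgeR adjusted p = 8.06e-06) in the libraries labelled TAZ4SA. TAZ-CAMTA1 did not pass against EV and lay below the libraries labelled TAZ4SA (log2 difference -1.42 ± 0.20 SE, edgeR adjusted p = 1.81e-06) and below YAP-TFE3 (log2 difference -1.50 ± 0.19 SE, edgeR adjusted p = 1.06e-06). CAMTA1 lay below EVsub (log2 difference -0.76 ± 0.19 SE, edgeR adjusted p = 0.0338), and this call was lost in edgeR without any 1 of replicates 1, 2 and 3 of CAMTA1 and replicates 1, 2 and 3 of EVsub (log2 fold change -0.81 to -0.69, adjusted p 0.0706 to 0.164). MMP25 ranged from 0.676 to 5.32 CPM, and its exons overlap MMP25-AS1 on the opposite strand. MMP25 fell in EVsub (log2 difference -1.53 ± 0.28 SE, edgeR adjusted p = 0.000202), and its rise in YAP-TFE3 (log2 difference 0.61 ± 0.23 SE, edgeR adjusted p = 0.0348) was lost in edgeR without any 1 of replicates 1 and 2 of EV and replicate 3 of YAP-TFE3 (log2 fold change 0.32 to 0.58, adjusted p 0.0911 to 0.271), and under scaling by total counts (adjusted p = 0.0696) and under a fit of the 2 groups alone (adjusted p = 0.118).

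MMP1, the interstitial collagenase, and MMP3, stromelysin 1, are neighbours on chromosome 11 in a run of 9 MMP genes (chr11:102520508-102955732 in hg38, 435.2 kb) of which only these 2 reached the count minimum. YAP1 itself lies 287.1 kb from the nearest gene of the run, MMP7. MMP1 stood at 1.001, 1.68 and 1.70 CPM in EV, 3.74, 3.83 and 4.34 in EVsub, 2.98, 2.81 and 2.70 in CAMTA1 and 1.37, 0.813 and 1.56 in TFE3. TAZ-CAMTA1 held 0.151, 0.616 and 0.215, YAP-TFE3 2.44, 2.07 and 2.46, the libraries labelled TAZ4SA 0.442, 0.730 and 0.116 and YAP5SA 0.0472, 0.333 and 0.161. The empty vector below confluence, CAMTA1 and YAP-TFE3 exceeded every EV library, and TAZ-CAMTA1, YAP5SA and the libraries labelled TAZ4SA all lay below every EV library. YAP-TFE3 did not pass against EV for MMP1 (log2 difference 0.69 ± 0.32 SE, edgeR adjusted p = 0.0821). CAMTA1 lay below every library of EVsub, its comparison group, and was not called against it. MMP1 fell in YAP5SA (log2 difference -2.98 ± 0.51 SE, edgeR adjusted p = 4.28e-05), in TAZ-CAMTA1 (log2 difference -2.12 ± 0.43 SE, edgeR adjusted p = 0.00289) and in the libraries labelled TAZ4SA (log2 difference -1.76 ± 0.42 SE, edgeR adjusted p = 0.00132), and rose in EVsub (log2 difference 1.46 ± 0.31 SE, edgeR adjusted p = 0.000888). YAP-TFE3 lay above YAP5SA (log2 difference 3.67 ± 0.47 SE, edgeR adjusted p = 5.93e-07), and TAZ-CAMTA1 below YAP-TFE3 (log2 difference -2.80 ± 0.39 SE, edgeR adjusted p = 3.48e-06). MMP3 was not among the genes named by rule and is given because it adjoins MMP1, a choice made after its values were seen. It ran from 0 to 1.25 CPM. All EV libraries held at most 3 counts of MMP3, and against that floor of 3 counts per library it was at least 7.99-fold higher in YAP-TFE3, at least 2.29-fold higher in YAP5SA and at least 2.90-fold higher in EVsub (edgeR adjusted p = 2.06e-05, 0.0395 and 0.012). These bounds set group means against the floor. The YAP5SA libraries held 7, 8 and 3 counts of MMP3 and the EVsub libraries 14, 4 and 12, so 1 YAP5SA library was at the floor. TAZ-CAMTA1 lay at least 9.41-fold below YAP-TFE3 (edgeR adjusted p = 1.18e-05). The YAP5SA call for MMP3 was lost in edgeR without any 1 of replicates 1 and 2 of EV and replicates 1 and 2 of YAP5SA (log2 fold change 1.61 to 2.60, adjusted p 0.0601 to 0.166), and under scaling by total counts (adjusted p = 0.0538), and the EVsub call was lost in edgeR without replicate 1 of EV (log2 fold change 2.01, adjusted p = 0.0636) or without replicate 1 of EVsub (log2 fold change 2.28, adjusted p = 0.0625). Exons of both overlap the opposite-strand gene WTAPP1.

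MMP11, stromelysin 3, is activated inside the cell by furin and is typical of stromal cells around tumours. It stood at 7.49, 7.77 and 11 CPM in EV, 4.80, 3.96 and 5.22 in EVsub, 2.89, 4.03 and 5.89 in CAMTA1 and 8.91, 8.85 and 10.1 in TFE3. TAZ-CAMTA1 held 8.07, 6.43 and 9.25, YAP-TFE3 13.9, 14.3 and 18.8, the libraries labelled TAZ4SA 10.3, 10.2 and 8.44 and YAP5SA 9.44, 12.1 and 10.5. YAP-TFE3 held the highest values, above all other libraries, and EVsub and CAMTA1 the lowest. MMP11 rose in YAP-TFE3 (log2 difference 0.85 ± 0.19 SE, edgeR adjusted p = 0.000675), fell in EVsub (log2 difference -0.89 ± 0.20 SE, edgeR adjusted p = 0.00149), and was lower in TAZ-CAMTA1 than in YAP-TFE3 (log2 difference -0.98 ± 0.19 SE, edgeR adjusted p = 0.000173). The excess of YAP-TFE3 over YAP5SA (log2 difference 0.55 ± 0.19 SE, edgeR adjusted p = 0.0165) was lost in edgeR without replicate 1 of YAP5SA (log2 fold change 0.47, adjusted p = 0.0758) or without replicate 3 of YAP-TFE3 (log2 fold change 0.40, adjusted p = 0.0913). MMP19 is a widely expressed secreted MMP that cleaves basement membrane proteins. Its values were 1.79, 1.60 and 0.969 CPM in EV, 1.87, 1.58 and 1.87 in EVsub, 2.56, 2.15 and 1.57 in CAMTA1 and 1.49, 1.78 and 1.63 in TFE3. TAZ-CAMTA1 held 4.13, 4.62 and 3.23, YAP-TFE3 11.9, 12.6 and 5.14, the libraries labelled TAZ4SA 4.14, 3.31 and 2.08 and YAP5SA 6.56, 6.51 and 3.90. All libraries of YAP-TFE3, YAP5SA, TAZ-CAMTA1 and those labelled TAZ4SA lay above every EV library. The log2 rise over EV was 2.73 ± 0.31 (SE; edgeR adjusted p = 9.71e-08) in YAP-TFE3, 1.92 ± 0.32 (SE; edgeR adjusted p = 2.76e-05) in YAP5SA, 1.42 ± 0.32 (SE; edgeR adjusted p = 0.00768) in TAZ-CAMTA1 and 1.09 ± 0.33 (SE; edgeR adjusted p = 0.00808) in the libraries labelled TAZ4SA. TAZ-CAMTA1 stayed below YAP-TFE3 (log2 difference -1.30 ± 0.27 SE, edgeR adjusted p = 0.000426). The TAZ-CAMTA1 call against EV was lost in edgeR without replicate 3 of EV (log2 fold change 1.23, adjusted p = 0.0538), and the call in the libraries labelled TAZ4SA was lost in edgeR without replicate 1 of the libraries labelled TAZ4SA (log2 fold change 0.85, adjusted p = 0.0611). The excess of YAP-TFE3 over YAP5SA (log2 difference 0.81 ± 0.27 SE, edgeR adjusted p = 0.015) was lost in edgeR without any 1 of replicate 3 of YAP5SA and replicates 1 and 2 of YAP-TFE3 (log2 fold change 0.59 to 0.65, adjusted p 0.0746 to 0.0995), and under a fit of the 2 groups alone (adjusted p = 0.0672). MMP19 exons overlap the gene TMEM198B on the opposite strand.

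MMP28, epilysin, was rare, at 0.241, 0.533 and 0.436 CPM in EV, 0.0381, 0.225 and 0.0284 in EVsub, 0.180, 0.265 and 0.0982 in CAMTA1 and 0.672, 0.301 and 0.553 in TFE3. TAZ-CAMTA1 held 1.33, 0.958 and 1.998, YAP-TFE3 1.85, 1.95 and 3.24, the libraries labelled TAZ4SA 0.161, 0.0859 and 0.308 and YAP5SA 0.755, 0.428 and 0.522. Both fusion groups lay above every other library, YAP-TFE3 with a mean of 2.35 ± 0.774 CPM and TAZ-CAMTA1 with 1.43 ± 0.527 (SD, n = 3). MMP28 rose in YAP-TFE3 (log2 difference 2.55 ± 0.39 SE, edgeR adjusted p = 7.68e-06) and in TAZ-CAMTA1 (log2 difference 1.84 ± 0.41 SE, edgeR adjusted p = 0.00713), and each fusion exceeded its parent, for YAP-TFE3 against YAP5SA (log2 difference 2.05 ± 0.37 SE, edgeR adjusted p = 6.72e-05) and for TAZ-CAMTA1 against the libraries labelled TAZ4SA (log2 difference 2.90 ± 0.47 SE, edgeR adjusted p = 1.67e-05). Neither YAP5SA nor the libraries labelled TAZ4SA passed against EV. The TAZ-CAMTA1 call against EV was lost in edgeR without replicate 1 of EV (log2 fold change 1.55, adjusted p = 0.0625) or without replicate 3 of TAZ-CAMTA1 (log2 fold change 1.51, adjusted p = 0.0734). MMP28 also fell in EVsub (log2 difference -2.17 ± 0.67 SE, edgeR adjusted p = 0.0141), which was lost in edgeR without any 1 of replicate 2 of EV and replicates 1 and 3 of EVsub (log2 fold change -1.89 to -1.64, adjusted p 0.0631 to 0.0919).

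ADAMTS7 and ADAMTS12 cleave cartilage oligomeric matrix protein. ADAMTS12 (chr5:33523535-33892019 in hg38) was the most abundant ADAMTS RNA in every group, and its libraries held 234, 254 and 222 CPM in EV, 236, 201 and 223 in EVsub, 195, 204 and 185 in CAMTA1 and 268, 231 and 226 in TFE3. TAZ-CAMTA1 held 335, 340.1 and 309, YAP-TFE3 164, 174 and 187, the libraries labelled TAZ4SA 313, 329.7 and 253 and YAP5SA 519, 489 and 416. YAP5SA lay above every other library, and YAP-TFE3 lay below every library of the other confluent groups. ADAMTS12 rose in YAP5SA (log2 difference 1.01 ± 0.10 SE, edgeR adjusted p = 1.83e-08) and in TAZ-CAMTA1 (log2 difference 0.47 ± 0.10 SE, edgeR adjusted p = 0.00517), and fell in YAP-TFE3 (log2 difference -0.44 ± 0.10 SE, edgeR adjusted p = 0.000968). YAP-TFE3 lay below YAP5SA (log2 difference -1.44 ± 0.10 SE, edgeR adjusted p = 3.61e-11), and TAZ-CAMTA1 above YAP-TFE3 (log2 difference 0.91 ± 0.10 SE, edgeR adjusted p = 1.18e-07). The rise in the libraries labelled TAZ4SA (log2 difference 0.34 ± 0.10 SE, edgeR adjusted p = 0.00802) was lost in edgeR without replicate 2 of the libraries labelled TAZ4SA (log2 fold change 0.26, adjusted p = 0.0622), and under scaling by total counts (adjusted p = 0.177). ADAMTS7 stood at 52.7, 55.1 and 56.9 CPM in EV, 28.9, 27.5 and 33.7 in EVsub, 26.8, 28.4 and 32.5 in CAMTA1 and 66.3, 50.9 and 53.3 in TFE3. TAZ-CAMTA1 held 52.99, 52.2 and 61.1, YAP-TFE3 43.2, 50.1 and 50.6, the libraries labelled TAZ4SA 44.5, 46.1 and 41.95 and YAP5SA 36.5, 46.2 and 44.5. The 2 groups collected below confluence lay under all other libraries, and EVsub fell (log2 difference -0.87 ± 0.11 SE, edgeR adjusted p = 6.96e-06). Smaller falls in YAP5SA (log2 difference -0.37 ± 0.11 SE, edgeR adjusted p = 0.00924) and in the libraries labelled TAZ4SA (log2 difference -0.31 ± 0.11 SE, edgeR adjusted p = 0.0234) were each no longer called without at least 1 library. The first was lost in edgeR without replicate 1 of YAP5SA (log2 fold change -0.27, adjusted p = 0.0742). The second was lost in edgeR without any 1 of replicates 2 and 3 of EV and replicates 1 and 3 of the libraries labelled TAZ4SA (log2 fold change -0.32 to -0.28, adjusted p 0.051 to 0.0768). TAZ-CAMTA1 exceeded the libraries labelled TAZ4SA (log2 difference 0.33 ± 0.11 SE, edgeR adjusted p = 0.0158), which was lost in edgeR without replicate 3 of the libraries labelled TAZ4SA (log2 fold change 0.29, adjusted p = 0.0576) or without replicate 3 of TAZ-CAMTA1 (log2 fold change 0.25, adjusted p = 0.0957). ADAMTS7 has near-identical pseudogene copies, and how reads shared with them were counted is not given in the sources used here.

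The procollagen N-proteinases ADAMTS2, ADAMTS3 and ADAMTS14 remove the amino-terminal propeptide of fibrillar collagens, and ADAMTS3 also matures the growth factor VEGF-C. ADAMTS2 stood at 27.9, 31.8 and 27.2 CPM in EV, 24.2, 26.6 and 27.96 in EVsub, 23.3, 24.6 and 19.9 in CAMTA1 and 31.9, 28.6 and 25.3 in TFE3. TAZ-CAMTA1 held 26.6, 24.9 and 26.6, YAP-TFE3 36.7, 43.8 and 66.02, the libraries labelled TAZ4SA 40.6, 36.02 and 31.3 and YAP5SA 55.2, 55.97 and 45.95. Every library of YAP5SA and YAP-TFE3 lay above every EV library. ADAMTS2 rose in YAP5SA (log2 difference 0.85 ± 0.15 SE, edgeR adjusted p = 7.53e-05) and in YAP-TFE3 (log2 difference 0.75 ± 0.15 SE, edgeR adjusted p = 0.000236), and TAZ-CAMTA1 lay below YAP-TFE3 (log2 difference -0.91 ± 0.15 SE, edgeR adjusted p = 3.42e-05). The difference of TAZ-CAMTA1 from the libraries labelled TAZ4SA (log2 difference -0.47 ± 0.15 SE, edgeR adjusted p = 0.0127) was lost in edgeR without replicate 1 of the libraries labelled TAZ4SA (log2 fold change -0.37, adjusted p = 0.0755), and under scaling by total counts (adjusted p = 0.117). ADAMTS3 moved the other way and stood at 17.2, 14.3 and 16.1 CPM in EV, 23.6, 17.1 and 19.3 in EVsub, 21.6, 20.3 and 21.99 in CAMTA1 and 15.98, 15.2 and 19.5 in TFE3. TAZ-CAMTA1 held 12.9, 14.6 and 16.3, YAP-TFE3 6.95, 6.03 and 10.6, the libraries labelled TAZ4SA 5.62, 6.10 and 5.13 and YAP5SA 3.82, 4.33 and 4.58. YAP5SA, YAP-TFE3 and the libraries labelled TAZ4SA lay below all other libraries. ADAMTS3 fell in YAP5SA (log2 difference -1.90 ± 0.17 SE, edgeR adjusted p = 3.71e-09), in the libraries labelled TAZ4SA (log2 difference -1.50 ± 0.17 SE, edgeR adjusted p = 9.49e-08) and in YAP-TFE3 (log2 difference -1.01 ± 0.16 SE, edgeR adjusted p = 1.38e-05). It was higher in TAZ-CAMTA1 than in the libraries labelled TAZ4SA (log2 difference 1.38 ± 0.17 SE, edgeR adjusted p = 2.89e-07) and than in YAP-TFE3 (log2 difference 0.89 ± 0.16 SE, edgeR adjusted p = 8.15e-05), and YAP-TFE3 exceeded YAP5SA (log2 difference 0.89 ± 0.18 SE, edgeR adjusted p = 0.000168).

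ADAMTS14 separated YAP-TFE3 from all other groups. Its libraries held 0.897, 0.876 and 1.94 CPM in EV, 0.953, 1.49 and 1.19 in EVsub, 0.872, 2.25 and 1.47 in CAMTA1 and 1.17, 1.39 and 1.17 in TFE3. TAZ-CAMTA1 held 0.606, 0.582 and 0.830, YAP-TFE3 7.41, 8.19 and 8.56, the libraries labelled TAZ4SA 0.321, 0.773 and 0.964 and YAP5SA 0.802, 0.761 and 0.562. The lowest YAP-TFE3 library was above the highest library of any other group. ADAMTS14 rose in YAP-TFE3 against EV (log2 difference 2.74 ± 0.29 SE, edgeR adjusted p = 3.65e-08) and exceeded YAP5SA (log2 difference 3.51 ± 0.32 SE, edgeR adjusted p = 2.31e-09), and TAZ-CAMTA1 lay below it (log2 difference -3.56 ± 0.31 SE, edgeR adjusted p = 1.91e-09). No other construct passed against its empty vector for ADAMTS14.

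The proteoglycan-cleaving ADAMTS proteases act on aggrecan and versican. ADAMTS1 stood at 2.90, 4.57 and 3.44 CPM in EV, 5.45, 5.09 and 4.34 in EVsub, 7.40, 5.75 and 4.32 in CAMTA1 and 3.04, 2.56 and 2.93 in TFE3. TAZ-CAMTA1 held 3.26, 4.11 and 3.996, YAP-TFE3 7.47, 8.07 and 17.9, the libraries labelled TAZ4SA 8.63, 10.3 and 10.6 and YAP5SA 8.54, 9.22 and 9.56. All libraries of YAP-TFE3, YAP5SA and those labelled TAZ4SA lay above every EV library, and 1 YAP-TFE3 library stood far above its group. ADAMTS1 rose in YAP-TFE3 (log2 difference 1.62 ± 0.25 SE, edgeR adjusted p = 1.04e-05), in the libraries labelled TAZ4SA (log2 difference 1.44 ± 0.26 SE, edgeR adjusted p = 5.84e-05) and in YAP5SA (log2 difference 1.33 ± 0.26 SE, edgeR adjusted p = 0.000185). TAZ-CAMTA1 did not pass against EV and lay below the libraries labelled TAZ4SA (log2 difference -1.38 ± 0.25 SE, edgeR adjusted p = 6.68e-05) and below YAP-TFE3 (log2 difference -1.56 ± 0.25 SE, edgeR adjusted p = 1.8e-05). ADAMTS9, which is active against versican, moved down and stood at 16.1, 17.7 and 10.6 CPM in EV, 8.62, 9.14 and 8.97 in EVsub, 7.91, 8.03 and 11.6 in CAMTA1 and 18.7, 15.96 and 10.5 in TFE3. TAZ-CAMTA1 held 18.5, 17.9 and 11.5, YAP-TFE3 8.29, 7.53 and 6.82, the libraries labelled TAZ4SA 2.97, 2.66 and 1.66 and YAP5SA 3.45, 3.61 and 3.69. YAP5SA and the libraries labelled TAZ4SA held the lowest values, with YAP-TFE3 next. The log2 difference from EV was -2.61 ± 0.25 (SE; edgeR adjusted p = 5.66e-09) in the libraries labelled TAZ4SA, -2.05 ± 0.24 (SE; edgeR adjusted p = 1.65e-07) in YAP5SA and -0.98 ± 0.22 (SE; edgeR adjusted p = 0.000608) in YAP-TFE3. TAZ-CAMTA1 exceeded the libraries labelled TAZ4SA (log2 difference 2.71 ± 0.25 SE, edgeR adjusted p = 2.75e-09) and YAP-TFE3 (log2 difference 1.08 ± 0.22 SE, edgeR adjusted p = 0.000262), and YAP-TFE3 exceeded YAP5SA (log2 difference 1.07 ± 0.24 SE, edgeR adjusted p = 0.000606). The fall in EVsub (log2 difference -0.74 ± 0.22 SE, edgeR adjusted p = 0.00976) was lost in edgeR without replicate 2 of EV (log2 fold change -0.59, adjusted p = 0.0631).

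ADAMTS4, the aggrecanase 1, stood at 11.7, 12.9 and 11.2 CPM in EV, 11.6, 9.46 and 11.3 in EVsub, 9.41, 10.1 and 10.1 in CAMTA1 and 13.03, 10.9 and 9.95 in TFE3. TAZ-CAMTA1 held 9.51, 9.86 and 7.59, YAP-TFE3 8.68, 10.4 and 8.24, the libraries labelled TAZ4SA 17.1, 16.5 and 11.6 and YAP5SA 6.75, 7.18 and 6.35. YAP5SA was the lowest group, below every library of EV, and fell (log2 difference -0.82 ± 0.15 SE, edgeR adjusted p = 8.47e-05). For ADAMTS4 the libraries labelled TAZ4SA did not pass against EV, and TAZ-CAMTA1 lay below them (log2 difference -0.75 ± 0.14 SE, edgeR adjusted p = 0.000118). A fall in YAP-TFE3 (log2 difference -0.39 ± 0.14 SE, edgeR adjusted p = 0.0274) was lost in edgeR without any 1 of replicate 2 of EV and replicates 1 and 3 of YAP-TFE3 (log2 fold change -0.36 to -0.32, adjusted p 0.0797 to 0.106), and under a filter of 1 count (adjusted p = 0.0614) and under a fit of the 2 groups alone (adjusted p = 0.0503). Its excess over YAP5SA (log2 difference 0.43 ± 0.15 SE, edgeR adjusted p = 0.0176) was lost in edgeR without replicate 3 of YAP5SA (log2 fold change 0.39, adjusted p = 0.0621) or without replicate 2 of YAP-TFE3 (log2 fold change 0.32, adjusted p = 0.102), and under a fit of the 2 groups alone (adjusted p = 0.0579). ADAMTS15, a further versican-cleaving protease, stood at 14.01, 11.5 and 11 CPM in EV, 18.7, 19.4 and 20.8 in EVsub, 28.4, 28.6 and 21.5 in CAMTA1 and 10.9, 13.5 and 10.6 in TFE3. TAZ-CAMTA1 held 21.7, 23.2 and 21.2, YAP-TFE3 6.66, 8.10 and 7.37, the libraries labelled TAZ4SA 13.7, 11.9 and 11.5 and YAP5SA 21.9, 21.6 and 20.96. YAP-TFE3 lay below every other library, and TAZ-CAMTA1, YAP5SA and EVsub lay above every EV library. ADAMTS15 rose in TAZ-CAMTA1 (log2 difference 0.86 ± 0.12 SE, edgeR adjusted p = 5.98e-05), in YAP5SA (log2 difference 0.82 ± 0.12 SE, edgeR adjusted p = 8.34e-06) and in EVsub (log2 difference 0.69 ± 0.12 SE, edgeR adjusted p = 0.000168), and fell in YAP-TFE3 (log2 difference -0.72 ± 0.13 SE, edgeR adjusted p = 4.77e-05). TAZ-CAMTA1 lay above YAP-TFE3 (log2 difference 1.58 ± 0.13 SE, edgeR adjusted p = 4.89e-10), and YAP-TFE3 below YAP5SA (log2 difference -1.54 ± 0.13 SE, edgeR adjusted p = 3.95e-10). TAZ-CAMTA1 also exceeded the libraries labelled TAZ4SA (log2 difference 0.84 ± 0.12 SE, edgeR adjusted p = 4.3e-06).

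**Figure D2:**
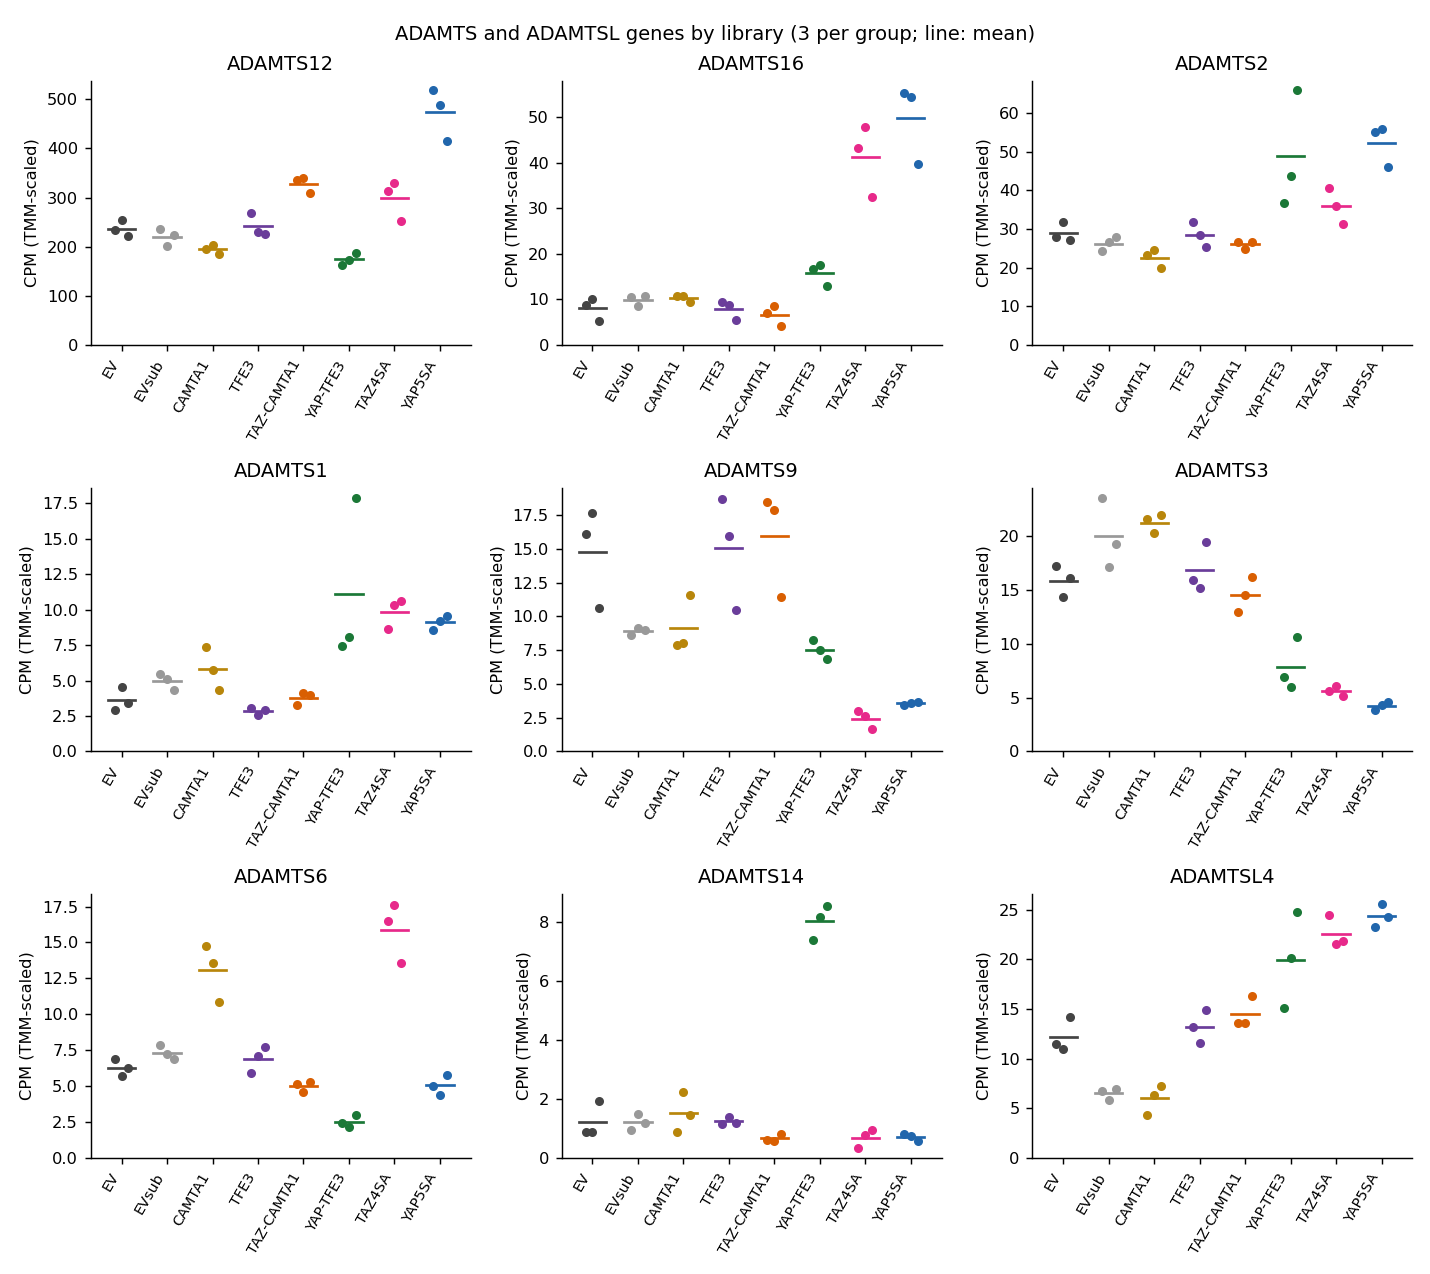
ADAMTS and ADAMTSL genes by library. Each panel plots 1 gene, the vertical axis is TMM-scaled CPM, points are single libraries (3 per group) and lines are group means. ADAMTS14 reached 8.05 ± 0.586 CPM (SD, n = 3) in YAP-TFE3 against 1.24 ± 0.607 in EV, and ADAMTS16 was highest in YAP5SA and in the libraries labelled TAZ4SA.

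ADAMTS6 and ADAMTS10 are a pair of closely related proteases that act on fibrillin microfibrils. ADAMTS6 (chr5:65148738-65481920 in hg38) stood at 6.87, 5.71 and 6.25 CPM in EV, 7.89, 7.25 and 6.87 in EVsub, 14.8, 13.6 and 10.8 in CAMTA1 and 5.90, 7.11 and 7.74 in TFE3. TAZ-CAMTA1 held 5.11, 4.59 and 5.26, YAP-TFE3 2.44, 2.13 and 3.01, the libraries labelled TAZ4SA 16.5, 17.6 and 13.6 and YAP5SA 5.003, 4.38 and 5.78. The libraries labelled TAZ4SA and CAMTA1 were the high groups, and every YAP-TFE3 library was below all others. ADAMTS6 rose in the libraries labelled TAZ4SA (log2 difference 1.34 ± 0.15 SE, edgeR adjusted p = 7.02e-08), fell in YAP-TFE3 (log2 difference -1.31 ± 0.16 SE, edgeR adjusted p = 3.71e-07), and rose in CAMTA1 against EVsub (log2 difference 0.84 ± 0.14 SE, edgeR adjusted p = 0.0013). TAZ-CAMTA1 did not pass against EV and lay below the libraries labelled TAZ4SA (log2 difference -1.67 ± 0.15 SE, edgeR adjusted p = 2.05e-09). YAP-TFE3 lay below YAP5SA (log2 difference -0.9999 ± 0.17 SE, edgeR adjusted p = 1.89e-05) and TAZ-CAMTA1 above YAP-TFE3 (log2 difference 0.98 ± 0.16 SE, edgeR adjusted p = 3.01e-05). ADAMTS10 stood at 23.1, 23.1 and 25.5 CPM in EV, 9.99, 10.9 and 11.1 in EVsub, 10.2, 11.2 and 10.6 in CAMTA1 and 28.1, 23.1 and 25.04 in TFE3. TAZ-CAMTA1 held 30.4, 27.4 and 33.9, YAP-TFE3 28.1, 32.8 and 37.98, the libraries labelled TAZ4SA 23.1, 20.7 and 17.2 and YAP5SA 22.9, 26.2 and 23.7. The libraries below confluence held less than any other, and EVsub fell (log2 difference -1.16 ± 0.12 SE, edgeR adjusted p = 8.65e-07). ADAMTS10 rose in YAP-TFE3 (log2 difference 0.46 ± 0.12 SE, edgeR adjusted p = 0.00198) and exceeded YAP5SA there (log2 difference 0.44 ± 0.12 SE, edgeR adjusted p = 0.00286), and TAZ-CAMTA1 exceeded the libraries labelled TAZ4SA (log2 difference 0.59 ± 0.12 SE, edgeR adjusted p = 0.000194).

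Promoter sequence is shown for 4 members that changed in opposite directions or in 1 construct, chosen after their values were seen. RefSeq windows on GRCh38.p14 were matched by symbol for 31 of the 50 members and 21 of the 35 tested; tested members with no window were MMP1, MMP2, MMP3, MMP9, MMP17, MMP19, MMP25, MMP28, ADAMTS1, ADAMTS4, ADAMTS9, ADAMTS15, ADAMTS16 and TIMP2. The 250 bases before the start are shown on the gene's strand for ADAMTS12 (chr5:33891991-33892240, minus strand) and ADAMTS6 (chr5:65481921-65482170, minus strand), which hold matches, and for MMP24 (chr20:35226440-35226689, plus strand) and ADAMTS14 (chr10:70672256-70672505, plus strand), which hold none. Capitals mark the letters GGAATG (the site of the TEAD factors that YAP and TAZ bind), TGANTCA (the AP-1 site) and CACGTG (the E-box that TFE3 binds), searched on both strands.
ADAMTS12: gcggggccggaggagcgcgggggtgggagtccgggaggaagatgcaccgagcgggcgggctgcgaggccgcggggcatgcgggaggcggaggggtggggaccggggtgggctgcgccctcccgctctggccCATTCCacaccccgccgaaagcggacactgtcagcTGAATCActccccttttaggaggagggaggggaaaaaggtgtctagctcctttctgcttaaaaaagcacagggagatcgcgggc
ADAMTS6: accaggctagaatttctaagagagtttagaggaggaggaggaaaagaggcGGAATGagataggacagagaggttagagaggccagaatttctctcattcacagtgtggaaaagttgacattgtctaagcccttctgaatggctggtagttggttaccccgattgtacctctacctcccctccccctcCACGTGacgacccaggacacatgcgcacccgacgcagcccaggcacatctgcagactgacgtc
MMP24: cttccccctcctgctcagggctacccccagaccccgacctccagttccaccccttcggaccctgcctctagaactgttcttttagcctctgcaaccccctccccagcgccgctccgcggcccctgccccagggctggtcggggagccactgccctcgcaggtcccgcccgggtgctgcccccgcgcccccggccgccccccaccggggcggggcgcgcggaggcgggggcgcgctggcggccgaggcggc
ADAMTS14: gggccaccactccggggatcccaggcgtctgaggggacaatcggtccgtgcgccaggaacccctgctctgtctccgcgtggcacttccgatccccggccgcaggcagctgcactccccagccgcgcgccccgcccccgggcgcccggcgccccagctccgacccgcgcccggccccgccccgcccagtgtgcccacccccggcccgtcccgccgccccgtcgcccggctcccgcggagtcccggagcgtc
In ADAMTS12 the TEAD letters begin 119 bases and the AP-1 letters 84 bases before the start. In ADAMTS6 the TEAD letters begin 200 bases and the CACGTG letters 63 bases before it. Among all 35116 RefSeq windows, 11.9% held the TEAD letters, 6.57% the AP-1 letters and 6.34% CACGTG. Among the 21 tested members with a window only ADAMTS12 and ADAMTS6 held the TEAD letters, which describes letters and not binding. ADAMTS6 rose in the libraries labelled TAZ4SA and fell in YAP-TFE3, and ADAMTS12 rose in YAP5SA and fell in YAP-TFE3. MMP24, whose window holds none of these letters, rose in YAP5SA and in the libraries labelled TAZ4SA and fell in YAP-TFE3. Only the 250 bases before each start were searched, and whether the letters had a part in these changes was not tested. The paper reports that the fusions and their hyperactive parents bound mostly distal intergenic sequence. Such sequence was not searched here.

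ADAMTS13 is the protease that cleaves von Willebrand factor in blood. It stood at 12.3, 13.8 and 11.9 CPM in EV, 4.96, 6.26 and 4.88 in EVsub, 4.66, 6.45 and 6.78 in CAMTA1 and 14.1, 13.8 and 14.2 in TFE3. TAZ-CAMTA1 held 11.1, 12.4 and 12.1, YAP-TFE3 7.05, 9.70 and 9.19, the libraries labelled TAZ4SA 7.03, 6.05 and 6.44 and YAP5SA 5.43, 5.80 and 7.19. EV, TFE3 and TAZ-CAMTA1 formed the high set, and the other groups lay below all of their libraries. ADAMTS13 fell in EVsub (log2 difference -1.25 ± 0.15 SE, edgeR adjusted p = 2.87e-06), in YAP5SA (log2 difference -1.04 ± 0.15 SE, edgeR adjusted p = 3.26e-06), in the libraries labelled TAZ4SA (log2 difference -0.96 ± 0.15 SE, edgeR adjusted p = 7.63e-06) and in YAP-TFE3 (log2 difference -0.55 ± 0.14 SE, edgeR adjusted p = 0.00229). TAZ-CAMTA1 exceeded the libraries labelled TAZ4SA (log2 difference 0.86 ± 0.14 SE, edgeR adjusted p = 2.51e-05). Its excess over YAP-TFE3 (log2 difference 0.45 ± 0.14 SE, edgeR adjusted p = 0.0116) was lost in edgeR without replicate 1 of YAP-TFE3 (log2 fold change 0.32, adjusted p = 0.0815). YAP-TFE3 exceeded YAP5SA (log2 difference 0.49 ± 0.15 SE, edgeR adjusted p = 0.00718), which was lost in edgeR under a fit of the 2 groups alone (adjusted p = 0.0599).

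ADAMTS16 and ADAMTS18 are sequence relatives, and ADAMTS16 cleaves fibronectin. ADAMTS16 stood at 8.80, 10.1 and 5.28 CPM in EV, 10.6, 8.60 and 10.6 in EVsub, 10.7, 10.8 and 9.43 in CAMTA1 and 9.47, 8.67 and 5.40 in TFE3. TAZ-CAMTA1 held 6.93, 8.66 and 4.18, YAP-TFE3 16.7, 17.5 and 12.9, the libraries labelled TAZ4SA 43.2, 47.7 and 32.5 and YAP5SA 55.3, 54.3 and 39.7. YAP5SA and the libraries labelled TAZ4SA were far above the rest, with YAP-TFE3 in between. ADAMTS16 rose in YAP5SA (log2 difference 2.61 ± 0.24 SE, edgeR adjusted p = 3.47e-09), in the libraries labelled TAZ4SA (log2 difference 2.34 ± 0.24 SE, edgeR adjusted p = 1.96e-08) and in YAP-TFE3 (log2 difference 0.95 ± 0.24 SE, edgeR adjusted p = 0.00178). TAZ-CAMTA1 did not pass against EV, lay below the libraries labelled TAZ4SA (log2 difference -2.65 ± 0.24 SE, edgeR adjusted p = 3.02e-09) and below YAP-TFE3 (log2 difference -1.26 ± 0.24 SE, edgeR adjusted p = 0.000144), and YAP-TFE3 lay below YAP5SA (log2 difference -1.66 ± 0.23 SE, edgeR adjusted p = 1.27e-06). ADAMTS18 was rarer, at 0.449, 0.495 and 0.388 CPM in EV, 0.191, 0.315 and 0.482 in EVsub, 0.451, 0.231 and 0.344 in CAMTA1 and 0.234, 0.361 and 0.293 in TFE3. TAZ-CAMTA1 held 0.303, 0.479 and 0.184, YAP-TFE3 0.617, 0.220 and 0.173, the libraries labelled TAZ4SA 1.65, 1.63 and 1.89 and YAP5SA 1.13, 1.38 and 1.25. The same 2 groups were highest, above all other libraries. ADAMTS18 rose in the libraries labelled TAZ4SA (log2 difference 1.94 ± 0.34 SE, edgeR adjusted p = 4.82e-05) and in YAP5SA (log2 difference 1.48 ± 0.35 SE, edgeR adjusted p = 0.00156). Both fusions lay below their parents, TAZ-CAMTA1 (log2 difference -2.42 ± 0.35 SE, edgeR adjusted p = 3.31e-06) and YAP-TFE3 (log2 difference -1.90 ± 0.36 SE, edgeR adjusted p = 8.72e-05). ADAMTS17 ranged from 0.636 to 2.53 CPM and was lower in TAZ-CAMTA1 than in the libraries labelled TAZ4SA (log2 difference -1.25 ± 0.26 SE, edgeR adjusted p = 0.000333). Its rise in the libraries labelled TAZ4SA (log2 difference 0.67 ± 0.25 SE, edgeR adjusted p = 0.0319) was lost in edgeR without any 1 of replicates 2 and 3 of EV and replicate 2 of the libraries labelled TAZ4SA (log2 fold change 0.51 to 0.64, adjusted p 0.0735 to 0.143), and under scaling by total counts (adjusted p = 0.128). The lower level in YAP-TFE3 than in YAP5SA (log2 difference -0.73 ± 0.27 SE, edgeR adjusted p = 0.0245) was lost in edgeR without any 1 of replicates 1 and 3 of YAP5SA and replicates 1 and 3 of YAP-TFE3 (log2 fold change -0.73 to -0.48, adjusted p 0.0524 to 0.137), and under scaling by total counts (adjusted p = 0.0531) and under a fit of the 2 groups alone (adjusted p = 0.0687).

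The ADAMTSL proteins carry no protease domain. ADAMTSL4, a fibrillin-binding protein, stood at 11.4, 10.97 and 14.2 CPM in EV, 6.75, 5.81 and 6.98 in EVsub, 4.33, 6.38 and 7.27 in CAMTA1 and 13.2, 11.6 and 14.9 in TFE3. TAZ-CAMTA1 held 13.6, 13.6 and 16.4, YAP-TFE3 15.1, 20.1 and 24.7, the libraries labelled TAZ4SA 24.5, 21.6 and 21.8 and YAP5SA 23.3, 25.5 and 24.3. All libraries of YAP-TFE3, YAP5SA and those labelled TAZ4SA lay above every EV library, and EVsub and CAMTA1 lay below. ADAMTSL4 rose in YAP5SA (log2 difference 0.999 ± 0.16 SE, edgeR adjusted p = 2.68e-05), in the libraries labelled TAZ4SA (log2 difference 0.89 ± 0.16 SE, edgeR adjusted p = 9.13e-05) and in YAP-TFE3 (log2 difference 0.71 ± 0.16 SE, edgeR adjusted p = 0.000851), and fell in EVsub (log2 difference -0.90 ± 0.17 SE, edgeR adjusted p = 0.000339). TAZ-CAMTA1 lay below the libraries labelled TAZ4SA (log2 difference -0.64 ± 0.16 SE, edgeR adjusted p = 0.00183). It also lay below YAP-TFE3 (log2 difference -0.46 ± 0.16 SE, edgeR adjusted p = 0.0229), which was lost in edgeR without any 1 of replicates 1 and 2 of TAZ-CAMTA1 and replicates 2 and 3 of YAP-TFE3 (log2 fold change -0.46 to -0.28, adjusted p 0.0524 to 0.166), and under scaling by total counts (adjusted p = 0.0728) and under a fit of the 2 groups alone (adjusted p = 0.0817). Exons of ADAMTSL4 overlap MCL1 and those of ADAMTSL5 overlap PLK5, both on the opposite strand. Reads may be shared if the counting did not use strand. ADAMTSL5 also binds fibrillin and stood at 6.35, 5.33 and 6.69 CPM in EV, 6.37, 5.32 and 6.73 in EVsub, 4.99, 5.79 and 5.40 in CAMTA1 and 7.71, 5.75 and 6.28 in TFE3. TAZ-CAMTA1 held 6.21, 7.57 and 8.21, YAP-TFE3 7.44, 8.66 and 10.1, the libraries labelled TAZ4SA 10.4, 10.4 and 9.41 and YAP5SA 14.7, 17.9 and 15.2. It rose in YAP5SA (log2 difference 1.38 ± 0.14 SE, edgeR adjusted p = 3.15e-08), in the libraries labelled TAZ4SA (log2 difference 0.72 ± 0.15 SE, edgeR adjusted p = 0.000263) and in YAP-TFE3 (log2 difference 0.52 ± 0.14 SE, edgeR adjusted p = 0.00482), with YAP5SA above all other libraries. YAP-TFE3 lay below YAP5SA (log2 difference -0.86 ± 0.14 SE, edgeR adjusted p = 1.35e-05). The lower level of TAZ-CAMTA1 than the libraries labelled TAZ4SA (log2 difference -0.45 ± 0.14 SE, edgeR adjusted p = 0.00958) was lost in edgeR under scaling by total counts (adjusted p = 0.131).

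ADAMTSL1, also called punctin, stood at 6.59, 7.84 and 8.09 CPM in EV, 4.12, 3.56 and 3.86 in EVsub, 3.97, 4.36 and 3.04 in CAMTA1 and 10.1, 5.69 and 10.5 in TFE3. TAZ-CAMTA1 held 15.2, 13.5 and 12.9, YAP-TFE3 6.99, 7.53 and 8.50, the libraries labelled TAZ4SA 10.2, 9.83 and 6.90 and YAP5SA 11.4, 12.8 and 9.32. TAZ-CAMTA1 was the highest group and the 2 groups collected below confluence were the lowest. ADAMTSL1 rose in TAZ-CAMTA1 (log2 difference 0.88 ± 0.19 SE, edgeR adjusted p = 0.0045) and fell in EVsub (log2 difference -0.96 ± 0.20 SE, edgeR adjusted p = 0.000705), and TAZ-CAMTA1 exceeded the libraries labelled TAZ4SA (log2 difference 0.63 ± 0.18 SE, edgeR adjusted p = 0.006) and YAP-TFE3 (log2 difference 0.85 ± 0.18 SE, edgeR adjusted p = 0.000581). The rise in YAP5SA (log2 difference 0.58 ± 0.19 SE, edgeR adjusted p = 0.0157) was lost in edgeR without replicate 1 of EV (log2 fold change 0.49, adjusted p = 0.0778) or without replicate 2 of YAP5SA (log2 fold change 0.47, adjusted p = 0.0826), and under scaling by total counts (adjusted p = 0.0741). YAP-TFE3 lay below YAP5SA (log2 difference -0.54 ± 0.19 SE, edgeR adjusted p = 0.0175), which was lost in edgeR without replicate 2 of YAP5SA (log2 fold change -0.43, adjusted p = 0.0936) or without replicate 1 of YAP-TFE3 (log2 fold change -0.48, adjusted p = 0.0653). ADAMTSL3 stayed under 0.5 CPM in every library outside YAP-TFE3, at 0.0690, 0.0762 and 0 CPM in EV, 0.114, 0.0450 and 0.0284 in EVsub, 0.120, 0 and 0.0491 in CAMTA1 and 0.0877, 0.0301 and 0.228 in TFE3. TAZ-CAMTA1 held 0, 0.137 and 0.123, YAP-TFE3 1.27, 1.004 and 1.21, the libraries labelled TAZ4SA 0.161, 0.215 and 0.270 and YAP5SA 0.236, 0.190 and 0.482. No EV library held more than 3 counts, and against a floor of 3 counts per library ADAMTSL3 was at least 9.60-fold higher in YAP-TFE3 and at least 2.50-fold higher in YAP5SA (edgeR adjusted p = 1.94e-06 and 0.0128). The YAP5SA call for ADAMTSL3 was lost in edgeR without replicate 3 of YAP5SA (log2 fold change 1.93, adjusted p = 0.0931). YAP-TFE3 exceeded YAP5SA (log2 difference 1.89 ± 0.44 SE, edgeR adjusted p = 0.000887). ADAMTSL2 ranged from 0.838 to 3.21 CPM, with YAP-TFE3 below all other libraries and a fall against EV (log2 difference -1.16 ± 0.22 SE, edgeR adjusted p = 0.000102).

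TIMP1 and TIMP2 were the abundant inhibitors. TIMP2 stood at 329, 346 and 401 CPM in EV, 444, 408 and 491 in EVsub, 478, 475 and 431 in CAMTA1 and 364, 308 and 369 in TFE3. TAZ-CAMTA1 held 378, 348 and 354, YAP-TFE3 403, 456 and 574, the libraries labelled TAZ4SA 654, 609.9 and 566 and YAP5SA 592, 551 and 465. Every library of EVsub, CAMTA1, YAP-TFE3, YAP5SA and those labelled TAZ4SA exceeded every EV library. TIMP2 rose in the libraries labelled TAZ4SA (log2 difference 0.77 ± 0.12 SE, edgeR adjusted p = 7.42e-06) and in YAP5SA (log2 difference 0.58 ± 0.12 SE, edgeR adjusted p = 0.00025), and TAZ-CAMTA1 lay below the libraries labelled TAZ4SA (log2 difference -0.76 ± 0.12 SE, edgeR adjusted p = 6.94e-06). The rise in YAP-TFE3 (log2 difference 0.41 ± 0.12 SE, edgeR adjusted p = 0.00457) was lost in edgeR without replicate 3 of YAP-TFE3 (log2 fold change 0.26, adjusted p = 0.051), and the lower level of TAZ-CAMTA1 than YAP-TFE3 (log2 difference -0.41 ± 0.12 SE, edgeR adjusted p = 0.00602) was lost in edgeR without replicate 3 of YAP-TFE3 (log2 fold change -0.26, adjusted p = 0.0623). The rise in EVsub (log2 difference 0.32 ± 0.12 SE, edgeR adjusted p = 0.0315) was lost in edgeR without any 1 of replicates 1 and 2 of EV and replicates 1 and 3 of EVsub (log2 fold change 0.25 to 0.33, adjusted p 0.0671 to 0.145), and under scaling by total counts (adjusted p = 0.0529). TIMP1, which also has growth-promoting activity, stood at 213, 248 and 255 CPM in EV, 172, 184 and 188 in EVsub, 162, 190.2 and 202 in CAMTA1 and 256, 201 and 228 in TFE3. TAZ-CAMTA1 held 246, 200.2 and 209.9, YAP-TFE3 154, 165 and 205, the libraries labelled TAZ4SA 211, 191 and 144 and YAP5SA 170.5, 177 and 127. All libraries of EVsub, YAP-TFE3, YAP5SA and those labelled TAZ4SA lay below every EV library. TIMP1 fell in YAP5SA (log2 difference -0.60 ± 0.14 SE, edgeR adjusted p = 0.0014), and its falls in the libraries labelled TAZ4SA (log2 difference -0.39 ± 0.14 SE, edgeR adjusted p = 0.024), in YAP-TFE3 (log2 difference -0.45 ± 0.14 SE, edgeR adjusted p = 0.0106) and in EVsub (log2 difference -0.40 ± 0.14 SE, edgeR adjusted p = 0.0295) were each no longer called without at least 1 library. The call in the libraries labelled TAZ4SA was lost in edgeR without any 1 of replicates 2 and 3 of EV and replicate 3 of the libraries labelled TAZ4SA (log2 fold change -0.36 to -0.25, adjusted p 0.0685 to 0.16). The YAP-TFE3 call was lost in edgeR without replicate 1 of YAP-TFE3 (log2 fold change -0.37, adjusted p = 0.0594), and the EVsub call was lost in edgeR without any 1 of replicates 2 and 3 of EV and replicates 1, 2 and 3 of EVsub (log2 fold change -0.42 to -0.35, adjusted p 0.0527 to 0.108). TIMP1 lies inside the gene SYN1, and TIMP2 shares exon sequence with CEP295NL on the same strand.

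TIMP3 binds the matrix and inhibits ADAMTS4 and ADAM17. It was not among the genes named by rule, and it is described because 1 library decides its value, a choice made after its values were seen. TIMP3 stood at 2.86, 1.41 and 1.11 CPM in EV, 4.65, 5.13 and 7.32 in EVsub, 2.92, 4.76 and 3.24 in CAMTA1 and 2.02, 1.20 and 0.878 in TFE3. TAZ-CAMTA1 held 0.909, 1.30 and 15.1, YAP-TFE3 1.56, 2.32 and 1.94, the libraries labelled TAZ4SA 5.02, 4.85 and 3.55 and YAP5SA 1.18, 3.90 and 3.86. The gene lies inside SYN3. Replicate 3 of TAZ-CAMTA1 lay far above every other library. TAZ-CAMTA1 exceeded YAP-TFE3 (log2 difference 1.60 ± 0.63 SE, edgeR adjusted p = 0.0444), and the call was lost in edgeR without any 1 of replicate 3 of TAZ-CAMTA1 and replicates 1, 2 and 3 of YAP-TFE3 (log2 fold change -0.80 to 1.74, adjusted p 0.0736 to 0.177), and under the replicate block (adjusted p = 0.0834) and under a fit of the 2 groups alone (adjusted p = 0.178). Without replicate 3 of TAZ-CAMTA1 the difference turned to -0.80 (edgeR adjusted p = 0.177), with TAZ-CAMTA1 the lower group.

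The RNA of each family was summed per kilobase to set inhibitors beside proteases. The MMP sum was 195 ± 29.4 CPM per kb (SD, n = 3) in EV, 131 ± 12.6 in YAP5SA and 119.6 ± 2.23 in EVsub. The TIMP sum had group means from 196 to 225 CPM per kb over the 8 groups. TIMP over MMP stood at 1.06 to 1.20 in EV, 0.965 to 1.07 in TFE3, 1.04 to 1.22 in TAZ-CAMTA1 and 0.950 to 1.11 in YAP-TFE3. It stood at 1.39 to 1.58 in YAP5SA, 1.39 to 1.51 in the libraries labelled TAZ4SA, 1.60 to 1.73 in EVsub and 1.55 to 1.82 in CAMTA1. The groups of this second set did not overlap EV, and CAMTA1 overlapped EVsub. However, 3 libraries against 3 cannot give an exact permutation p below 0.1 (two-sided), so none of these ratios is called. MMP14 made up 61.1% of the MMP sum in YAP-TFE3, 54.8% in the libraries labelled TAZ4SA and 54.1% in EVsub. Its share was 44.2 to 49.1% in the other groups, with 47.2% in EV. MMP2 made up 26.6% in YAP-TFE3 and 42.8% in EV, where the MMP sums were 194 and 195 CPM per kb. ADAMTS12 alone was 60.1% of the ADAMTS sum in YAP5SA, where that sum reached 82.1 ± 7.09 CPM per kb against 51.3 ± 2.41 in EV. In bulk RNA, fewer cells expressing a gene and less RNA per cell cannot be told apart.

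**Figure D3:**
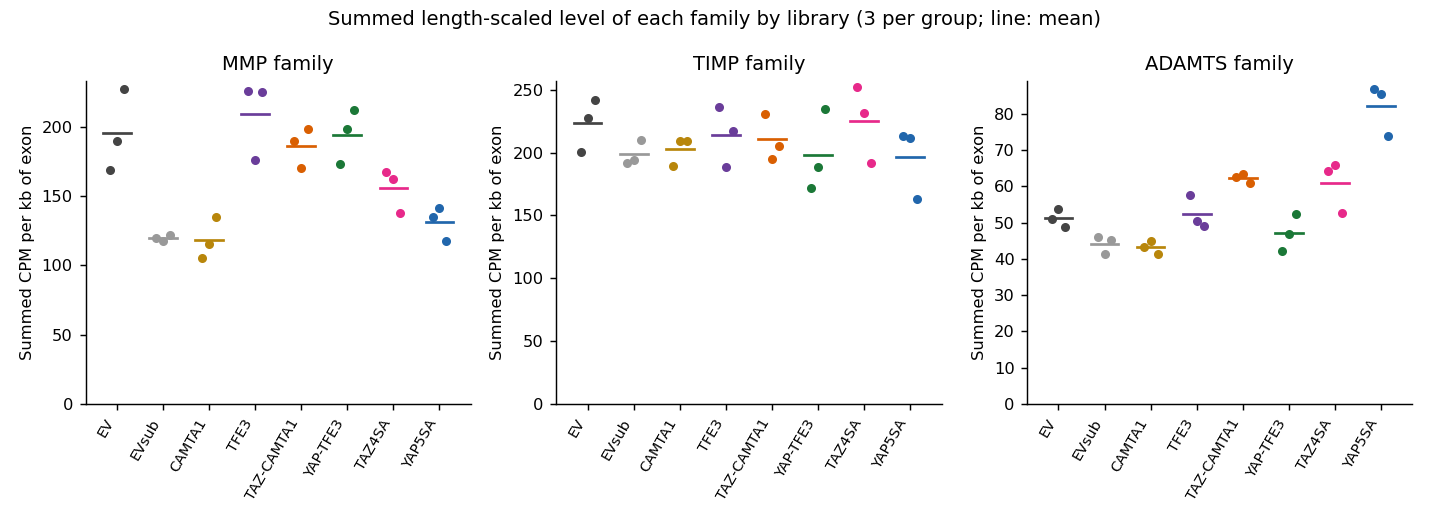
Summed length-scaled level of the MMP, TIMP and ADAMTS families by library. The vertical axis is the sum of CPM per kilobase of exon over the family, points are single libraries (3 per group) and lines are group means; the MMP sum was lowest in EVsub and CAMTA1, and the ADAMTS sum was highest in YAP5SA.

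The first comparisons asked what each construct did to the family at confluence. Against EV, 28 tested members were called in YAP-TFE3, 26 in YAP5SA, 20 in the libraries labelled TAZ4SA, 8 in TAZ-CAMTA1 and 0 in TFE3. In YAP-TFE3 against EV, 16 of the 35 tested members rose and 12 fell, led upward by ADAMTS14, MMP19 and MMP28, beside ADAMTSL3 and MMP3 with EV at the floor, and downward by ADAMTS6, ADAMTSL2 and MMP9. Without replicate 3 of YAP-TFE3, 14 rose and 11 fell. The 28 calls are 80% of members, against 48.2% of all 19997 genes tested (25.6% higher and 22.6% lower). In YAP5SA 16 rose and 10 fell (74.3% of members, against 44.3% of all genes, 22.7% higher and 21.6% lower), led by MMP24 and ADAMTS16 upward and by MMP1 and MMP9 downward. The libraries labelled TAZ4SA showed 12 higher and 8 lower (57.1% of members, against 49.2% of all genes, 25.1% higher and 24.2% lower), led by ADAMTS16 and ADAMTS18 upward and by ADAMTS9 and MMP1 downward. Scaling by total counts moved the median of all genes by -0.20 for that comparison and gave 10 higher and 11 lower, and in YAP5SA moved it by -0.185 and gave 13 higher and 12 lower. The median log2 fold change of the members, beside that of all tested genes, was 0.08 and -0.01 in YAP-TFE3, 0.52 and -0.04 in YAP5SA and 0.31 and -0.03 in the libraries labelled TAZ4SA. The tested members had a median of 248.3 counts per library on average and all tested genes 301.6. These 3 comparisons share the EV libraries.

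TAZ-CAMTA1 changed 8 members against EV, 6 higher (MMP28, MMP19, ADAMTSL1, ADAMTS15, MMP24 and ADAMTS12) and 2 lower (MMP1 and MMP9). That is 22.9% of members, against 4.98% of all genes tested (3.55% higher and 1.44% lower). The median log2 fold change was -0.03 for members and 0.00 for all genes. No TIMP was called, and 27 members did not pass. In full-length TFE3 none of the 35 was called (against 0.035% of all genes), none reached an unadjusted p under 0.05 in edgeR, and DESeq2 called none. CAMTA1 against EVsub called 2 members, ADAMTS6 higher and MMP17 lower (5.71% of members, against 1.83% of all genes, 1.26% higher and 0.57% lower), and 6 reached an unadjusted p under 0.05 in edgeR.

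**Figure D4:**
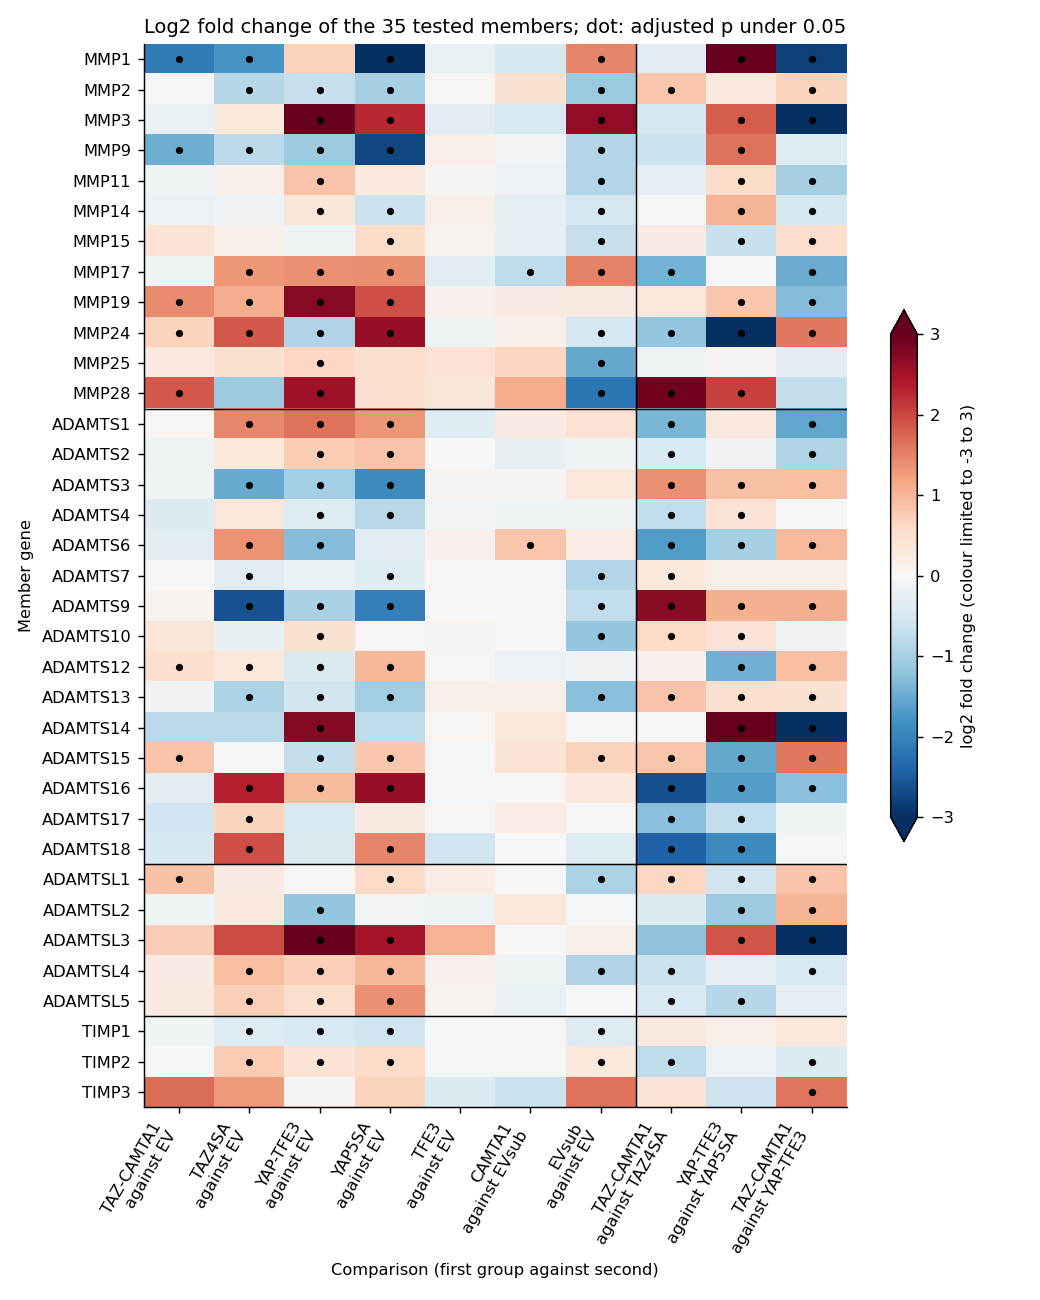
Log2 fold change of every tested member in each comparison, from the edgeR fit of all 24 libraries. Rows are genes by family, columns are comparisons and the colour, limited to -3 to 3, gives the log2 fold change, with a dot at an adjusted p under 0.05; the columns of YAP-TFE3, YAP5SA and the libraries labelled TAZ4SA against EV hold 28, 26 and 20 dots, and TFE3 against EV holds none.

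With the empty vector alone, more members fell below confluence than rose. EVsub held 15 members below EV and 5 above (57.1% of members, against 36.8% of all genes, 19.8% higher and 17.1% lower), with 8 of the 12 tested MMP genes among the lower ones. MMP3, MMP17, MMP1, ADAMTS15 and TIMP2 were the 5 that rose. The median log2 fold change was -0.14 for members and -0.02 for all genes. The count fell to between 14 and 19 when single libraries were left out, with replicate-level losses named beside each gene. The 7 mesenchymal markers summed to 2758 to 2953 CPM in EVsub against 4829 to 5726 in EV, to 1923 to 2921 in the libraries labelled TAZ4SA and to 2013 to 3625 in YAP5SA. FN1 carried most of that sum, with means of 4154 CPM in EV, 1450 in EVsub, 1639 in YAP5SA and 1177 in the libraries labelled TAZ4SA, while VIM averaged 804, 1075, 834 and 1060 CPM. COL1A1 averaged 19.2 CPM in EV and 61.7 in YAP5SA. Mitochondrial genes took 3.20 to 3.59% of counts in EVsub and 5.09 to 5.43% in EV. The part of these markers and of the mitochondrial share in the results was not tested. CAMTA1 and EVsub differ from EV in density, so density and construct cannot be told apart in a comparison of CAMTA1 with EV.

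Each fusion was compared with its hyperactive parent. Set against the libraries labelled TAZ4SA, TAZ-CAMTA1 gave 21 called members, 9 higher and 12 lower in the fusion (60% of members, against 53.7% of all genes, 26.9% higher and 26.8% lower), led by MMP28 and ADAMTS9 upward and ADAMTS16 and ADAMTS18 downward. Under total-count scaling, which moved the median of all genes by 0.20, the split was 12 higher and 10 lower. YAP-TFE3 and YAP5SA differed in 25 members, 14 higher and 11 lower in the fusion (71.4% of members, against 52.4% of all genes, 28.1% higher and 24.3% lower), with 7 of 12 tested MMP genes higher, led by MMP1, and MMP24 and ADAMTS18 leading downward. Without replicate 3 of YAP-TFE3 the split was 13 and 13. No TIMP passed in that comparison. The 2 fusions differed from each other in 25 members, 12 higher and 13 lower in TAZ-CAMTA1 (71.4% of members, against 42.7% of all genes, 19.9% higher and 22.8% lower), and without replicate 3 of YAP-TFE3 in 12 and 11. Of the 12 tested MMP genes 3 were higher in TAZ-CAMTA1 (MMP24, MMP2 and MMP15) and 6 in YAP-TFE3 (MMP3, MMP1, MMP17, MMP19, MMP11 and MMP14).

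**Figure D5:**
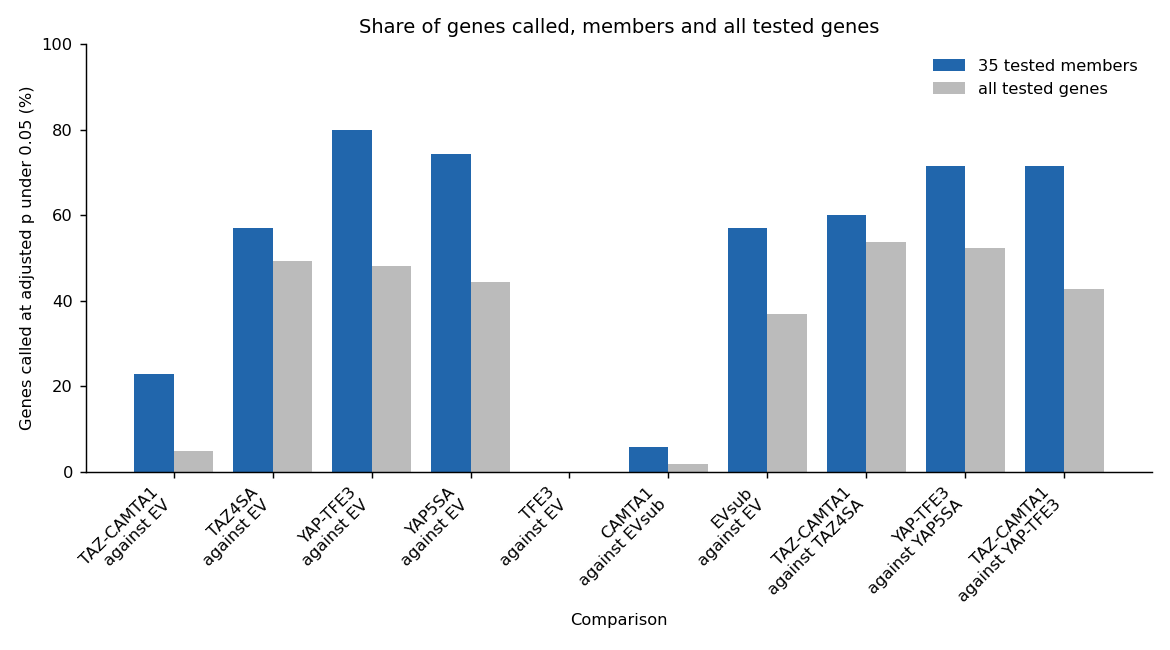
Share of tested members and of all tested genes that were called in each of the 10 comparisons, in percent. Bars are shares at an edgeR adjusted p under 0.05; the member share was 80% in YAP-TFE3 against EV beside 48.2% of all genes, and 0 in TFE3 against EV.

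Other genes of the pathway were read from lists of 50 genes, 44 of them tested: activators, inhibitors outside the TIMP family, clearance receptors and inducers, other matrix proteases and proteoglycan substrates. In YAP-TFE3, 18 rose and 8 fell (59.1%, against 48.2% of all genes), and 7 of the 8 tested cysteine and serine proteases of the matrix rose, among them the cathepsin CTSS (log2 difference 2.78 ± 0.15 SE, edgeR adjusted p = 2.04e-13) and the fibronectin-cleaving HTRA1 (log2 difference 1.86 ± 0.18 SE, edgeR adjusted p = 8.35e-09). HTRA1 fell in YAP5SA (log2 difference -1.19 ± 0.19 SE, edgeR adjusted p = 1.96e-05) and in the libraries labelled TAZ4SA (log2 difference -1.82 ± 0.20 SE, edgeR adjusted p = 5.88e-08), and YAP-TFE3 exceeded YAP5SA (log2 difference 3.05 ± 0.19 SE, edgeR adjusted p = 4.97e-12). CTSS fell in YAP5SA (log2 difference -0.71 ± 0.15 SE, edgeR adjusted p = 0.000494). Of the 44, 14 rose and 14 fell in YAP5SA (63.6%, against 44.3% of all genes). In the libraries labelled TAZ4SA 10 rose and 16 fell (59.1%, against 49.2%), and in TAZ-CAMTA1 4 rose and 1 fell (11.4%, against 4.98%). PLAUR, the urokinase receptor that brings plasmin generation to the cell surface, rose in the libraries labelled TAZ4SA (log2 difference 3.46 ± 0.17 SE, edgeR adjusted p = 1.18e-13), in YAP5SA (log2 difference 2.65 ± 0.17 SE, edgeR adjusted p = 8.21e-12) and in EVsub (log2 difference 0.53 ± 0.17 SE, edgeR adjusted p = 0.0189). SERPINB2, an intracellular inhibitor of urokinase, rose in YAP5SA (log2 difference 3.12 ± 0.34 SE, edgeR adjusted p = 6.13e-08), in the libraries labelled TAZ4SA (log2 difference 3.13 ± 0.34 SE, edgeR adjusted p = 5.27e-08) and in EVsub (log2 difference 3.34 ± 0.34 SE, edgeR adjusted p = 5.02e-07), and it lay below YAP5SA in YAP-TFE3 (log2 difference -3.59 ± 0.34 SE, edgeR adjusted p = 5.38e-09).

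The proprotein convertase PCSK5, of a family that activates MMP zymogens, rose in TAZ-CAMTA1 (log2 difference 1.42 ± 0.13 SE, edgeR adjusted p = 5.4e-08), in YAP-TFE3 (log2 difference 1.63 ± 0.13 SE, edgeR adjusted p = 2.73e-10) and in YAP5SA (log2 difference 0.66 ± 0.13 SE, edgeR adjusted p = 0.00026), and fell in the libraries labelled TAZ4SA (log2 difference -0.78 ± 0.14 SE, edgeR adjusted p = 6.6e-05). VCAN, the versican core protein that ADAMTS1, ADAMTS4, ADAMTS9 and ADAMTS15 cleave, fell in the libraries labelled TAZ4SA (log2 difference -3.43 ± 0.24 SE, edgeR adjusted p = 3.32e-11), in YAP5SA (log2 difference -3.38 ± 0.24 SE, edgeR adjusted p = 4.57e-11), in YAP-TFE3 (log2 difference -2.27 ± 0.22 SE, edgeR adjusted p = 7.93e-09) and in EVsub (log2 difference -1.64 ± 0.21 SE, edgeR adjusted p = 6.96e-06), and it rose in CAMTA1 against EVsub (log2 difference 1.21 ± 0.21 SE, edgeR adjusted p = 0.00156). TLL2, a procollagen C-proteinase relative, fell in the libraries labelled TAZ4SA (log2 difference -2.23 ± 0.19 SE, edgeR adjusted p = 9.06e-10), in YAP5SA (log2 difference -1.94 ± 0.19 SE, edgeR adjusted p = 7.51e-09), in YAP-TFE3 (log2 difference -1.24 ± 0.17 SE, edgeR adjusted p = 1.99e-06) and in EVsub (log2 difference -1.11 ± 0.17 SE, edgeR adjusted p = 4.07e-05). A2M, the broad protease trap, fell in YAP-TFE3 (log2 difference -1.62 ± 0.23 SE, edgeR adjusted p = 2.64e-06), in YAP5SA (log2 difference -1.46 ± 0.23 SE, edgeR adjusted p = 1.35e-05), in the libraries labelled TAZ4SA (log2 difference -0.97 ± 0.23 SE, edgeR adjusted p = 0.00104) and in EVsub (log2 difference -0.66 ± 0.22 SE, edgeR adjusted p = 0.0231). In EVsub 8 of the 44 rose and 14 fell (50%, against 36.8% of all genes). CAMTA1 against EVsub gave 2 higher and 1 lower (6.82%, against 1.83%), and in TFE3 none was called (against 0.035%). For TFE3 against EV, 7 of the 44 reached an unadjusted p under 0.05 in edgeR.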

How the data were processed

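Poly(A) RNA from 24 SW872 libraries was prepared with a stranded mRNA kit. The authors aligned the reads to hg38 in bcbio-nextgen, also ran Salmon with tximport for gene-level counts, and deposited 1 table of raw whole-number counts per gene for each library. Which of these routes made the tables, the strand setting and the treatment of reads with several matches are not given in the sources used here, and bcl2fastq is named in the submitters' processing notes. Replicates were separate transductions of the same line, so p-values measure the spread between these lines. Gene identifiers were matched to GENCODE release 44 for 56104 of 60279 genes.

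The 19997 genes that averaged 5 counts or more were entered into 1 edgeR (4.0.16, R 4.3.3) quasi-likelihood fit of the 24 libraries with TMM scaling and 1 mean per group, and 10 comparisons were read from it with Benjamini-Hochberg adjustment over all genes tested and a threshold of 0.05. No covariate was used. The study's own test, DESeq2, was an alternative (1.42.0). CPM is the count over the TMM-scaled library size, CPM per kb divides it by the exon length, and SE is that of the log2 fold change. A group with at most 3 counts in each library gives a bound and not a fold. Single-library values were given for 30 members: 23 with a group mean of at least 10 CPM and 7 with a called log2 fold change of at least 2 and a group mean of at least 1 CPM. TIMP3 was added after its values were seen. Simulated data for YAP-TFE3 against EV held 19866 genes, with 90 changed by 1 on the log2 scale and 110 changed by 2. The fit called 83.3% of the first and 100% of the second, with 5.13% of calls false. In the real comparison 48.2% of genes were called, and the rates were not tested at such a share of changed genes. They were not split by count level, so none is given for rare members such as MMP3 and ADAMTSL3.

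The members and gene lists were chosen with earlier results of these data known. Beside the fit, 8 alternatives were run: other size factors, total counts, other count minimums, DESeq2, a fit of the compared groups alone, a replicate block and leaving out single libraries. Replicate numbers were not treated as pairs, since deviations of same-numbered libraries did not all correlate above 0.1. Those correlations ran from -0.236 (TFE3 against EV, replicate 1) to 0.216 (YAP-TFE3 against EV, replicate 1), which cannot exclude a shared round of work. No 2 libraries of a group agreed within sampling noise.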

Additional observations from a re-analysis of the deposited data

How the results depend on the processing

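Of 175 calls of a member in a comparison, 132 kept their direction and stayed past the threshold under every alternative. DESeq2 lost 0 of the 174 it could adjust, other size factors lost 0, a minimum of 20 counts lost 0 of 162, a minimum of 1 count lost 2, a fit of the compared groups alone lost 8 and total-count scaling lost 11. Of 1050 fits without 1 library 97 lost a call and 1 reversed it: TIMP3 in TAZ-CAMTA1 against YAP-TFE3 was 1.60 with all libraries, ranged from -0.80 to 2.08 without single libraries and took the lowest value without TAZ-CAMTA1 replicate 3. Members called in CAMTA1 against EVsub rose from 2 to 4 with the 1-count minimum, with the compared groups alone and with DESeq2, and ranged from 1 to 2 without single libraries; the cause was not tested. Without single libraries the counts called ranged from 6 to 8 in TAZ-CAMTA1 against EV, 17 to 20 in the libraries labelled TAZ4SA, 25 to 29 in YAP-TFE3, 23 to 27 in YAP5SA and 14 to 19 in EVsub against EV (20 in all libraries), and from 21 to 21, 22 to 26 and 22 to 24 in TAZ-CAMTA1 against the libraries labelled TAZ4SA, YAP-TFE3 against YAP5SA and the fusions against each other. The replicate block, which treats the numbers as pairs, gave 27 calls in YAP5SA and 22 in the libraries labelled TAZ4SA against EV, 24 between the fusions and the same counts as above in the other 7 comparisons. It ended 1 call (TIMP3, TAZ-CAMTA1 against YAP-TFE3, adjusted p = 0.0834 in edgeR). Depth limits the rarest members: MMP3 and ADAMTSL3 rest on at most 3 counts per EV library, and no comparison is made for the 15 members below the minimum.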
